A study of Mus musculus with 4 samples.

Results

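The nuclear genes of oxidative phosphorylation were taken as the entries whose symbol starts with Nduf (complex I), Uqcr (complex III), Cox4 to Cox8 (complex IV) or Atp5 (complex V, ATP synthase), together with Sdha, Sdhb, Sdhc and Sdhd (complex II). The rule used names only and found 93 genes of 25072 named genes. Of these, 91 were listed in both pairs of tables under the same symbol. Ndufaf8 appeared under that name in the polyA tables only and as 1810043H04Rik in the total RNA tables, and Atp5sl appeared in the total RNA tables only and as Dmac2 in the polyA tables. The symbols cover subunits and, for complexes I, IV and V, 11 genes that are assembly factors or relatives of subunits, such as the Ndufaf genes. Subunits with other names, such as Cyc1 of complex III and Usmg5 of complex V, were not taken.

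All 4 libraries came from C2C12, an established line of mouse myoblasts whose cells fuse into myotubes after a switch from growth medium to differentiation medium (DM). Total RNA depleted of rRNA was sequenced from myoblasts (MB, DM -24 h) and myotubes (MT, DM 72 h by the sample label, while a legend of the study gives an earlier time for MT in an RNA-seq comparison). PolyA RNA was sequenced from myotubes transfected with a control siRNA (si-NC, DM 48 h) or with an siRNA against hnRNPL (si-hnRNPL, DM 48 h), an RNA binding protein. There was 1 library per condition, so the spread between replicates is unknown and no test was run. The 2 pairs differ in library type, DM time, sequencer and siRNA transfection, which cannot be told apart.

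Oxidative phosphorylation passes electrons from NADH through complex I, or from succinate through complex II, to complex III and then to complex IV, which reduces oxygen, while complex V uses the resulting proton gradient to make ATP. Complex II is encoded wholly in the nucleus, and the other complexes combine nuclear subunits with a few subunits encoded in mitochondrial DNA. The deposited tables list no mitochondrial DNA gene (0 entries), so only the nuclear side of the complexes was measured. Skeletal and cardiac muscle replace some ubiquitous subunits of complex IV with muscle isoforms, of which Cox6a2 takes the place of Cox6a1, Cox7a1 that of Cox7a2, and Cox8b that of Cox8a.

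The RNA depth implied by the widths of the deposited intervals was 5.44e+07 to 6.00e+07 fragments in the total RNA libraries and 1.46e+07 to 2.13e+07 in the polyA libraries. Markers matched the labels. Of 6 myotube markers (Myog, Myh3, Acta1, Ckm, Mylpf and Tnnc1), 3 reached 1 FPKM in MB and 6 did so in each of the other libraries, with summed FPKM of 21.6 in MB, 1896 in MT, 3066 in si-NC and 4729 in si-hnRNPL. The proliferation markers Mki67, Top2a and Ccnb1 summed to 329 in MB, 58.6 in MT, 128 in si-NC and 89.5 in si-hnRNPL. Summed FPKM of the marker lists of other cells stayed at or below 1.21 for macrophages, 0.0327 for endothelial cells and 0.0446 for adipocytes, and at 0.223 to 3.31 for cardiac muscle.

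The promoters of the muscle isoforms and of their ubiquitous partners are shown because the muscle isoforms had the largest differences between MB and MT. Windows of 300 bases, from 250 before to 50 after the start, came from RefSeq on GRCm38.p6. Windows were found for 74 of the 93 genes, among them both partners of the Cox7a and Cox8 pairs, but not for Cox6a2. They lie at chr7:30183921-30184220 on the plus strand for Cox7a1, and on the minus strand at chr7:140900397-140900696 for Cox8b, chr9:79759804-79760103 for Cox7a2 and chr19:7217567-7217866 for Cox8a. Capitals mark matches to the E-box CANNTG, which myogenic factors such as MyoD bind, and to the GABPA core GGAAGT, read as ACTTCC on the other strand.
Cox7a1: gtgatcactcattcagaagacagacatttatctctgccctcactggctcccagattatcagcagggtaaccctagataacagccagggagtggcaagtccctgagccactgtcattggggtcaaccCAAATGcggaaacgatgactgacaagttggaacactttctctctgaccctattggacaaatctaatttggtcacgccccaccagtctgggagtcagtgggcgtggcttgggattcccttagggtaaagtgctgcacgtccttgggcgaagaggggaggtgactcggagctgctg
Cox8b: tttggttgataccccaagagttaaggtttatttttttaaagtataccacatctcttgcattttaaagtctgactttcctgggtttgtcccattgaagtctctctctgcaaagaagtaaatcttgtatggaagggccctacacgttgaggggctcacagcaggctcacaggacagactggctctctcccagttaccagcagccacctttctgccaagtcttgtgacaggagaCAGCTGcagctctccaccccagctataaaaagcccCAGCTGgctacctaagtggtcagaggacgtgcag
Cox7a2: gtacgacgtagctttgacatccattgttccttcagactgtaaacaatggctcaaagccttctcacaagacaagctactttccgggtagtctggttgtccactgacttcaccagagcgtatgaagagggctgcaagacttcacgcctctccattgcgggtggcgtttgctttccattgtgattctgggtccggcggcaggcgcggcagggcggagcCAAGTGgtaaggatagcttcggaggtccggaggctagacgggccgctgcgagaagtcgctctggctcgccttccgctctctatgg
Cox8a: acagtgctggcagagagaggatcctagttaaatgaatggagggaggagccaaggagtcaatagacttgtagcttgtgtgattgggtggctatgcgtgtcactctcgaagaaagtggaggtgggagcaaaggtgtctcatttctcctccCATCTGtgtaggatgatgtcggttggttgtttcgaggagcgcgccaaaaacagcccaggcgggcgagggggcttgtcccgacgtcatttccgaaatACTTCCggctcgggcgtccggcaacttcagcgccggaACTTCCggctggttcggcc
The Cox8b window held the E-box CAGCTG at bases -19 to -14 and 17 to 22, counted from the annotated start with no base 0, and the 6 bases TATAAA between them. The windows of Cox7a1, Cox7a2 and Cox8a each held 1 other E-box of the form CANNTG, and Cox8a held ACTTCC at -6 to -1 and at 32 to 37.

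Over all matched windows and on both strands, CAGCTG was found in 6 of 74 genes (8.11%), which were Atp5b, Cox8b, Ndufa8, Ndufb10, Ndufs5 and Ndufv2, and in 17.5% of the other 17418 protein-coding genes with a window. The wider CANNTG, of which CAGCTG is a special case, was found in 71.6% and 72.1%. GCGCATGCG, the core recognised by NRF1, a known activator of respiratory genes, was found in 10 genes (13.5%) against 2.57% of the others. They were Atp5g2, Atp5k, Atp5l, Cox6a1, Ndufa8, Ndufa11, Ndufaf4, Ndufaf5, Uqcr11 and Uqcrc1. AAGATGGC, a YY1 motif, was also found in 10 genes (13.5%), against 3.53% of the others. Of these 10, 8 encode complex I subunits or factors, which hold 40 of the 74 windows. The share with this motif was 20% in complex I and 15.4% in complex V, where 2 of 13 windows held it. TCAAGGTCA, the motif of estrogen-related receptors, was found in Atp5g3 and Sdhd (2.70% against 0.367%), and GGAAGT in 32.4% against 27.7%. The MEF2 consensus was found in 0 of 74 windows and in 3.28% of the others. These are letter matches in a short window of one annotated start per gene, and the base composition of the windows was not matched.

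Levels are given as FPKM, the fragments of a gene scaled by transcript length and library size. They can be set beside each other within a library as far as the transcript length used for each gene holds. The nuclear subunits were among the abundant transcripts in every library. The median gene of the set stood at percentile 93.3 of all named genes listed at 1 FPKM or more in MB, 94.4 in MT, 92.8 in si-NC and 93.7 in si-hnRNPL. The median FPKM of all such genes was 13.9, 11.3, 13.2 and 12.9 in the same order.

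Complexes IV and V were listed at higher levels than complexes I, II and III in each library. With assembly factors and tissue isoforms left out, the median FPKM of complex I (37 subunits) was 89.5 in MB, 70.2 in MT, 83.3 in si-NC and 104 in si-hnRNPL. Complex II (4 subunits) had medians of 97.6, 72.3, 89.8 and 94.2, and complex III (8 subunits) of 124, 104, 120 and 143. The medians of complex IV (10 subunits) were 208, 181, 272 and 337 and those of complex V (15 subunits) 217, 190, 256 and 304, so both stood above the other complexes in all 4 libraries, and their own order differed between the total RNA and the polyA pair.

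**Figure D1:**
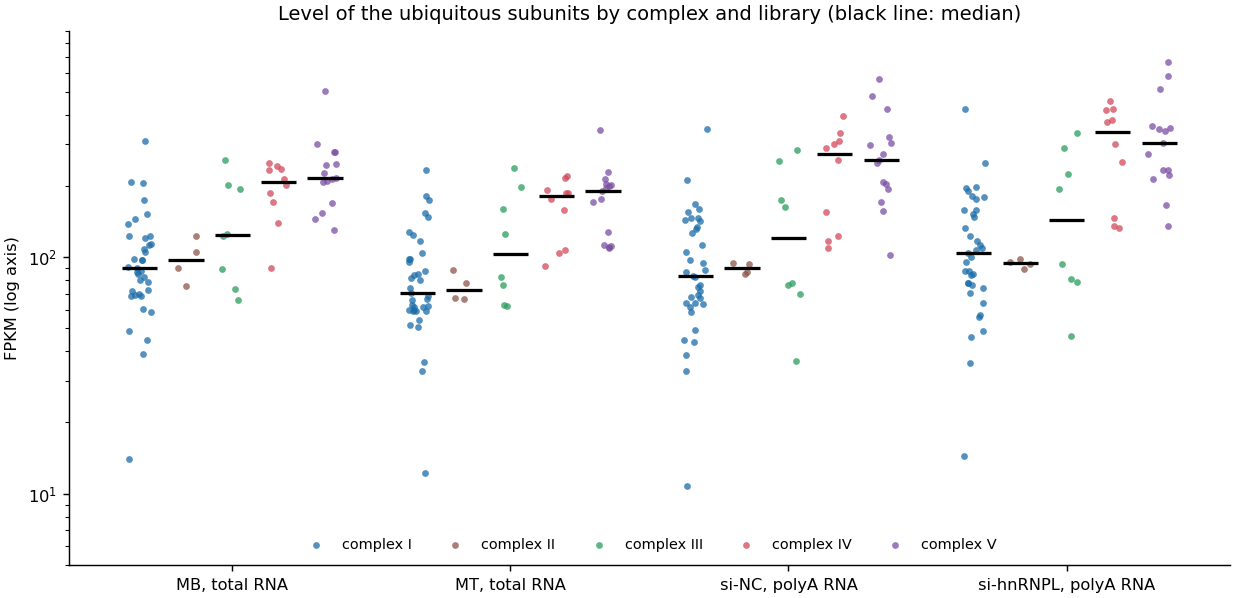
FPKM on a log axis of each ubiquitous subunit (points) of complexes I to V in each library, with the median of each complex as a black line. The median is 89.5 for complex I and 217 for complex V in MB, and 83.3 and 256 in si-NC, and 1 complex I gene, Ndufa11, sits apart at 10.8 to 14.4.

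Atp5b, the catalytic beta subunit of ATP synthase, had the highest level of the set, with an FPKM of 502 in MB, 345 in MT, 563 in si-NC and 666 in si-hnRNPL. Within complex I, Ndufa4, a small subunit long counted with complex I and since found in complex IV, was highest at 310, 233, 348 and 421. Ndufa11, a membrane arm subunit, was lowest at 14.1, 12.2, 10.8 and 14.4. The fragments implied for it in MB were 2916, near the 2810 of Ndufa5, which was at 87.1 FPKM. The low FPKM of Ndufa11 thus depends on the transcript length used for it, which was not tested. The spread between the highest and the lowest subunit in MB was 22.0-fold in complex I, where the lowest was Ndufa11. It was 1.63-fold in complex II, 3.90-fold in complex III, 2.77-fold in complex IV and 3.87-fold in complex V. The 4 complex II genes were closest to each other in all 4 libraries, down to 1.09-fold in si-hnRNPL.

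The order of the genes was much the same in both kinds of library. Across 84 of the genes, log2 FPKM in MT and in si-NC had a Pearson correlation of 0.97 and a Spearman correlation of 0.95, a description across genes that differ widely in level. Uqcrq, a small subunit of complex III, departed from this order in FPKM. Its FPKM was 89.2 in MB and 82.3 in MT but 36.4 with si-NC and 46.5 with si-hnRNPL. The fragments implied for it were 2443 of 5.44e+07 in MT and 1060 of 2.13e+07 in si-NC. FPKM also depends on the transcript length used for each pair of libraries, and its part in this difference was not tested.

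MT over MB asks how the set moved as myoblasts became myotubes. Changes are log2((FPKM + 1) ratio), counted as up or down from an absolute value of 0.58, which is about the 1.5-fold used in the study, and a gene had to reach 1 FPKM in both libraries of the pair. The interval given with a change combines the 95% intervals of both libraries and covers error within the libraries only. All named genes that passed this filter had a median change of -0.23, and changes centred on that median are given as relative changes. The FPKM values of named genes summed to 621542 in MB and 296284 in MT, so the direction of a small change depends on the scaling.

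Between MB and MT the median change of the nuclear genes of oxidative phosphorylation was close to that of all genes, and a smaller share of them was past the threshold in each direction. The filter passed 85 of 92 listed genes, and their median change was -0.24 (95% interval -0.40 to -0.20), which is -0.01 relative to all named genes. Of the 85, 3 were up and 11 down, where 12% and 28.9% of all 10791 named genes that passed were up and down. Changes below 0 were found for 70 genes and above 0 for 15, against 63.7% and 36.3% of all named genes, but relative to the median of all genes 38 lay above and 47 below. Scaled to the sum over protein-coding genes, an alternative chosen after seeing the data, the median was 0.14 and 50 genes lay above 0, so no common direction can be given for the set. The changes were also less spread than those of all genes, with an SD of 0.411 across the 85 genes against 0.835 across all. This was not particular to the set, as the SD was 0.321 for mitochondrial and 0.283 for cytosolic ribosomal protein genes.

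The other lists compared had lower median changes. The 77 mitochondrial ribosomal protein genes had a median change of -0.68 (-0.45 relative to all genes), with 0 up and 50 down, and the 77 cytosolic ribosomal protein genes that passed had -0.63, with 0 up and 52 down. Of 13 tricarboxylic acid cycle genes, 0 were up and 6 down (median -0.41). The 6 were Cs, Dlst, Fh1, Idh3a, Mdh2 and Suclg2, and Idh3a, a subunit of the NAD-dependent isocitrate dehydrogenase, went from an FPKM of 61.2 to 28.3 (-1.09). Of 9 electron carriers and partners, 0 were up and 5 down (median -0.71), namely cytochrome c (Cycs), cytochrome c1 (Cyc1), Etfb and the adenine nucleotide carriers Slc25a4 and Slc25a5. Slc25a5 had the largest change of these, from 347 to 151 (-1.20). Cyc1, at 120 FPKM in MB and 72.9 in MT (-0.71), is a complex III subunit that the name rule did not take.

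**Figure D2:**
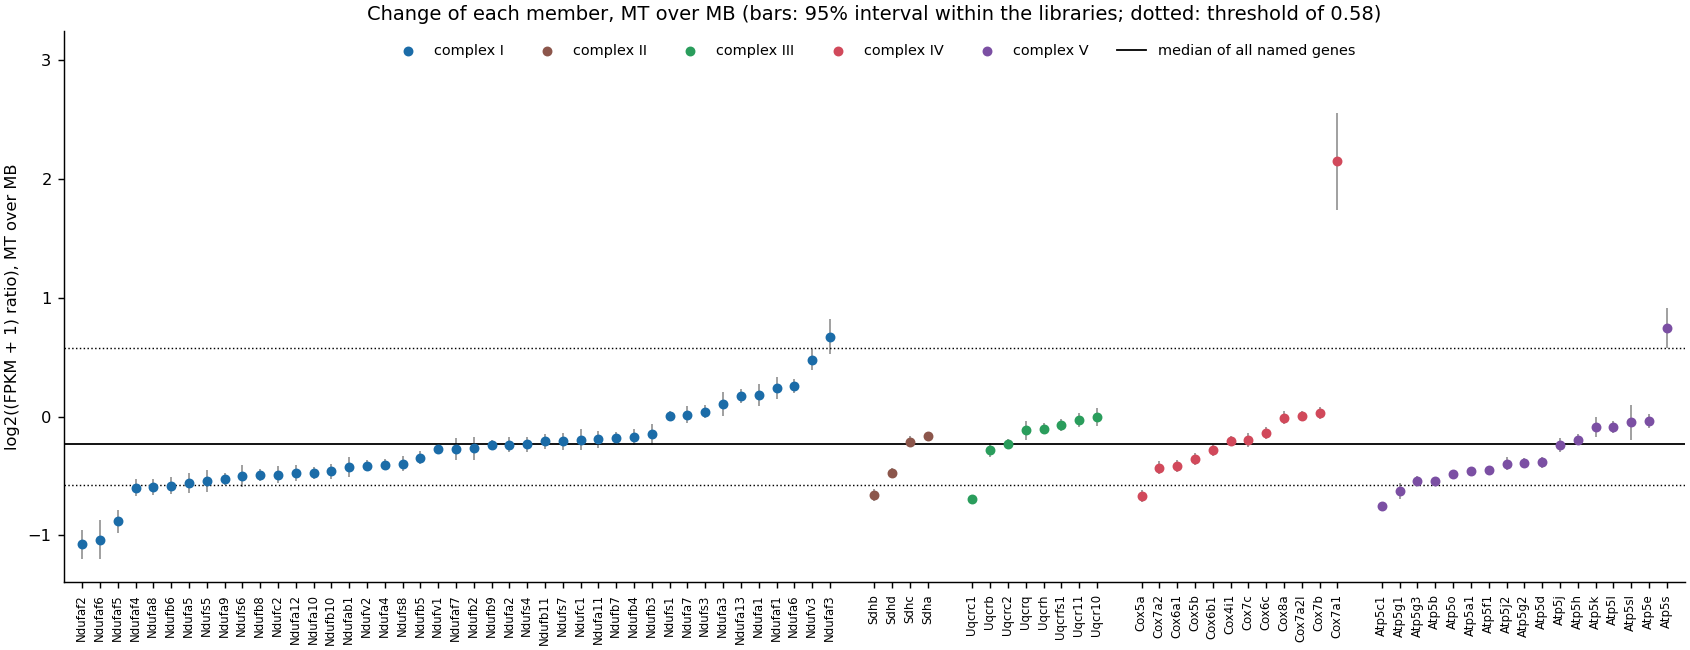
Change of genes of the set that reached 1 FPKM in both libraries, as log2((FPKM + 1) ratio) of MT over MB, ordered within complexes I to V (colours), with intervals within the libraries as bars. The black line is the median of all named genes (-0.23) and dotted lines mark an absolute change of 0.58; Cox7a1 stands apart at 2.15, most other points lie between the dotted lines, and points between the black line and 0 lie above the median of all genes.

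The 44 complex I genes that passed had a median change of -0.27, with 1 up and 6 down. The 7 nuclear core subunits, which carry the flavin and the iron-sulfur clusters, had a median of -0.21 (0.02 relative to all genes) and none was up or down. Ndufs1 was at 58.7 FPKM in MB and 59.0 in MT (0.01), and Ndufs3 was at 82.1 and 84.3 (0.04). Ndufs7 (68.2 and 58.9), Ndufv1 (79.9 and 65.8), Ndufs8 (105 and 79.8) and Ndufv2 (69.0 and 51.6) had changes of -0.21 to -0.41. The last pair stayed below 0 relative to all genes (-0.17 and -0.19), but not when scaled to the sum over named genes of at least 300 bases (0.17 and 0.15).

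The assembly factors of complex I, which build the complex and are not part of it, were more spread than its accessory subunits, with an SD of 0.671 across 7 changes against 0.279 across 30. Ndufaf2, a chaperone of a late step, fell from 35.0 in MB to 16.1 in MT (-1.08, -1.20 to -0.95). Ndufaf6 fell from 9.39 to 4.07 (-1.04) and Ndufaf5, which hydroxylates a core subunit, from 8.07 to 3.92 (-0.88). Ndufaf4 fell from 12.3 to 7.76 (-0.60), while Ndufaf3, its partner in early assembly, rose from 6.22 to 10.5 (0.67, 0.52 to 0.82). Of the 7 factors that passed, 1 was thus up and 4 down, and Ndufaf1 (14.9 and 17.8) and Ndufaf7 (9.15 and 7.40) were neither. Under its other name, Ndufaf8 was at 19.8 FPKM in MB and 14.2 in MT.

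Among the accessory subunits of complex I, Ndufa8 fell from 90.7 to 59.7 (-0.60) and Ndufb6 from 122 to 81.4 (-0.58), both just past the threshold. The subunits with the highest changes were Ndufv3 (70.1 and 98.0, 0.48) and Ndufa6 (123 and 148, 0.26). Both stayed above 0 under every scaling tried. Ndufv3, a small subunit next to the flavin site, was 0.71 relative to all genes.

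As deposited, the complex II genes lay below 0, and 1 of 4 was down. Sdhb, the iron-sulfur subunit, fell from 105 to 66.3 (-0.66, -0.71 to -0.61). Sdha, the flavoprotein subunit, was at 75.2 FPKM in MB and 67.2 in MT (-0.16). The membrane anchors Sdhc (89.7 and 77.4, -0.21) and Sdhd (123 and 87.8, -0.48) were not past the threshold, and relative to all genes Sdha and Sdhc lay above 0 (0.07 and 0.02).

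In complex III, 1 of the 8 genes of the set was down, and it was a core subunit. Uqcrc1, a core protein of the matrix side, fell from 123 to 75.8 (-0.69, -0.73 to -0.66). Its partner Uqcrc2 (73.0 and 62.1, -0.23) and the Rieske iron-sulfur protein Uqcrfs1 (65.7 and 62.6, -0.07) were not past the threshold. The small subunits Uqcr10 (125 and 125), Uqcr11 (201 and 197), Uqcrh (256 and 239), Uqcrq (89.2 and 82.3) and Uqcrb (194 and 160) had changes of -0.28 to 0.00, and all but Uqcrb lay above 0 relative to all genes.

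In complex IV, Cox5a, a ubiquitous subunit of the matrix side, fell from 171 to 107 (-0.67, -0.72 to -0.62). Cox6a1 (236 and 176, -0.42) and Cox7a2 (140 and 104, -0.43), partners of muscle isoforms, came next in order. Cox7b (89.9 and 91.6, 0.03), the supercomplex factor Cox7a2l (114 and 115, 0.00) and Cox8a (187 and 186, -0.01) stayed close to 0, which is 0.22 to 0.25 relative to all genes. Cox4i1, the largest nuclear subunit, was at 249 FPKM in MB and 216 in MT (-0.21).

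Complex V had the lowest median of the 5 complexes, at -0.39 (-0.16 relative to all genes), with 2 of 17 genes down and 1 up, although complex II was lower (-0.25 against -0.17) with transcript length and GC content taken out. Of the F1 head, the gamma subunit Atp5c1 fell from 217 to 128 (-0.75, -0.79 to -0.72). The alpha subunit Atp5a1 (277 and 201, -0.46), the beta subunit Atp5b (502 and 345, -0.54) and the delta subunit Atp5d (146 and 111, -0.39) were lower by less than the threshold, and the epsilon subunit Atp5e was at 209 and 204 (-0.04). Alpha, beta and delta stayed below 0 relative to all genes, but not when scaled to the sum over named genes of at least 300 bases (0.03 to 0.18). Atp5s, a factor outside the enzyme itself, rose from 1.99 to 4.03 (0.75, 0.58 to 0.92), and Atp5sl was at 5.74 and 5.52.

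Atp5g1, Atp5g2 and Atp5g3 encode the same mature c subunit of the proton-turning ring with different import peptides. Atp5g1 fell from 170 to 109 (-0.63), while Atp5g2 was at 301 and 230 (-0.39) and Atp5g3 at 277 and 190 (-0.55). In MB they made up 22.7%, 40.3% and 37.0% of their summed FPKM, and in MT 20.7%, 43.5% and 35.8%. In si-NC the shares were 10.2%, 47.7% and 42.1% and in si-hnRNPL 11.0%, 47.3% and 41.7%. By FPKM, Atp5g1 was thus the least abundant of the 3 in each library, with a smaller share in the polyA pair. The fragments implied for Atp5g1, Atp5g2 and Atp5g3 were 4854.5, 12164.4 and 12734.5 in MB. In si-NC they were 1343, 6257.7 and 2419.7. The shares thus also depend on the transcript length used for each pair of libraries, which was not tested.

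All 3 up and 11 down genes kept their direction relative to all genes, and under each other scaling that could be computed for them. The set of 14 did not all keep the threshold. Scaled to the sum over protein-coding genes, 6 genes were up and 2 down.

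The largest changes between MB and MT were those of the muscle isoforms of complex IV. Cox6a2 (chromosome 7, 135348949 to 135349880 in mm9) had an FPKM of 0.0483 in MB, on 2 fragments, and 21.9 in MT, 8.52 in si-NC and 6.43 in si-hnRNPL. Cox8b (chromosome 7, 148084841 to 148086345) had 0.119 in MB, also on 2 fragments, and 41.0, 9.29 and 15.7. Cox7a1 (chromosome 7, 30969190 to 30971049) had 1.17 in MB, on 20 fragments, and 8.60, 9.60 and 12.4. MB was the lowest library for each of the 3 genes.

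Between MB and MT the FPKM ratio was 453 for Cox6a2 (exact counting interval 125 to 3748), 346 for Cox8b (95.4 to 2862) and 7.35 for Cox7a1 (4.62 to 11.7). The first 2 genes did not pass the filter because of their low level in MB. Without the filter 5 genes of the set were up, the 3 above and these 2 with changes of 4.45 and 5.23, where 7.81% of all 24850 named entries were up. Cox6a2 lies within the locus of Itgad on the opposite strand, and Itgad was at 0 in MB, 0.00606 in MT, 0.00750 in si-NC and 0 in si-hnRNPL.

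The muscle isoforms stayed the minor partner in every library. Cox6a2 made up 0.0205% of the summed FPKM of Cox6a1 and Cox6a2 in MB and 11.0% (95% interval within the library 10.3% to 11.7%) in MT. Cox7a1 made up 0.829% of Cox7a1 and Cox7a2 in MB and 7.66% (6.51% to 8.81%) in MT. Cox8b made up 0.0634% of Cox8a, Cox8b and Cox8c in MB and 18.1% (16.9% to 19.3%) in MT, the largest share of the 3. Shares are ratios within a library, so the scaling of a library does not touch them.

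**Figure D3:**
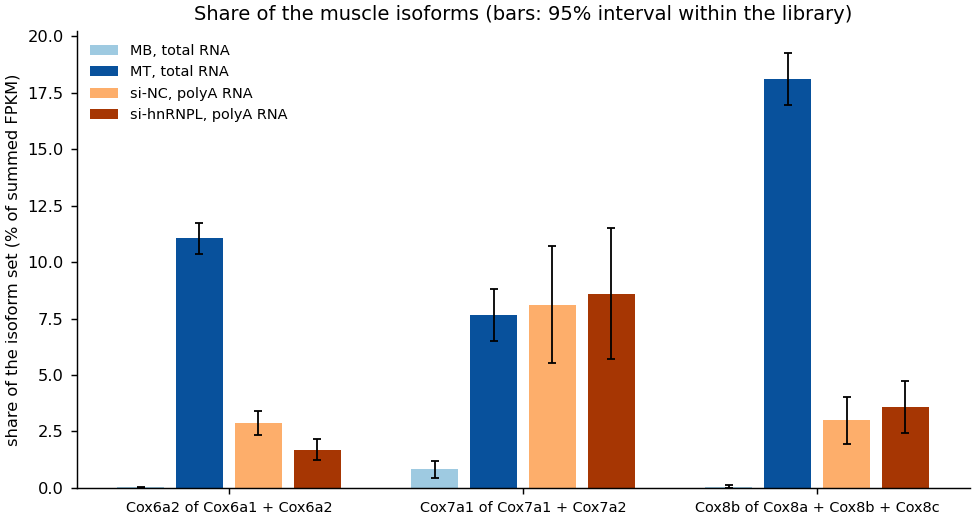
Share of Cox6a2, Cox7a1 and Cox8b in the summed FPKM of their isoform set in each of the 4 libraries, in percent, with 95% intervals within the library. All 3 shares are below 1% in MB and between 7.66% and 18.1% in MT, and in the polyA libraries Cox6a2 and Cox8b lie between 1.70% and 3.58% while Cox7a1 lies at 8.11% and 8.60%.

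By FPKM, the 3 isoforms did not share one pattern across the myotube libraries. In si-NC, at DM 48 h, the share of Cox6a2 was 2.87% (2.32% to 3.41%) and that of Cox8b 2.99% (1.97% to 4.005%), both well below their shares in MT, labelled DM 72 h. The share of Cox7a1 was 8.11% (5.54% to 10.7%), with an interval that holds its share in MT. These shares also depend on the transcript length used for each pair of libraries. The fragments implied for Cox7a1 and Cox7a2 were 156 and 5368 in MT, and 34.2 and 1880 in si-NC. The part of transcript length in these shares was not tested. DM time, library type, sequencer and siRNA transfection all differ between MT and si-NC and cannot be told apart.

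Isoforms of other tissues were close to 0. Cox8c was listed at 0 in all 4 libraries. Cox4i2, a lung isoform, had an FPKM of 0.0213 in MB, 0.0607 in MT, 0 in si-NC and 0.0942 in si-hnRNPL. Cox6b2 was at 0.0697 to 0.222, Cox7b2 at 0.0896 to 0.827, and Ndufa4l2, a relative of Ndufa4 induced by hypoxia, at 0.0573 to 0.150. None passed the filter, and with Cox6a2 and Cox8b they make up the 7 genes left out of MT over MB.

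Of 31 assembly factors with other names, 30 passed in MT over MB, with 1 up, 6 down and a median of -0.26. Cox14, a factor for the Cox1 subunit, rose from 32.6 to 50.6 (0.62). The 6 lower factors were Acad9 and Ecsit of complex I, Atpaf2 of complex V, and Cox10, Cox18 and Sco2 of complex IV. Cox18, which inserts the Cox2 subunit in the membrane, fell from 21.5 to 8.16 (-1.29), and Sco2, a copper chaperone, from 45.7 to 20.5 (-1.12).

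The comparison of si-hnRNPL with si-NC asks what followed a knockdown of hnRNPL in myotubes. The targeted gene itself, Hnrnpl, was at 95.1 FPKM (interval 92.7 to 97.5) with si-NC and at 85.9 (83.1 to 88.7) with si-hnRNPL, a change of -0.14 (-0.20 to -0.09). The difference in its mRNA is thus small in these libraries, and the library labelled si-hnRNPL is compared here as labelled. Protein was not measured in these data. The study examined its hnRNPL knockdown by Western blot, which is not part of these libraries.

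Nearly all genes of oxidative phosphorylation lay slightly higher in the library labelled si-hnRNPL. Of 92 listed genes 87 passed the filter, and 83 of the 87 had a change above 0, against 47.8% of all 11090 named genes that passed. Their median change was 0.24 (0.21 to 0.26), and that of all genes was -0.01. Only 3 of the 87 were up and 0 down, where 1.14% and 0.757% of all genes were up and down. The interval within the libraries lay above 0 for 63 genes and below 0 for 1, against 20.8% and 26.6% of all genes, and held 0 for 23. The median of the set lay above 0 under each scaling tried, and scaled to the sum over protein-coding genes it was 0.14 with 72 of the 87 above 0.

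**Figure D4:**
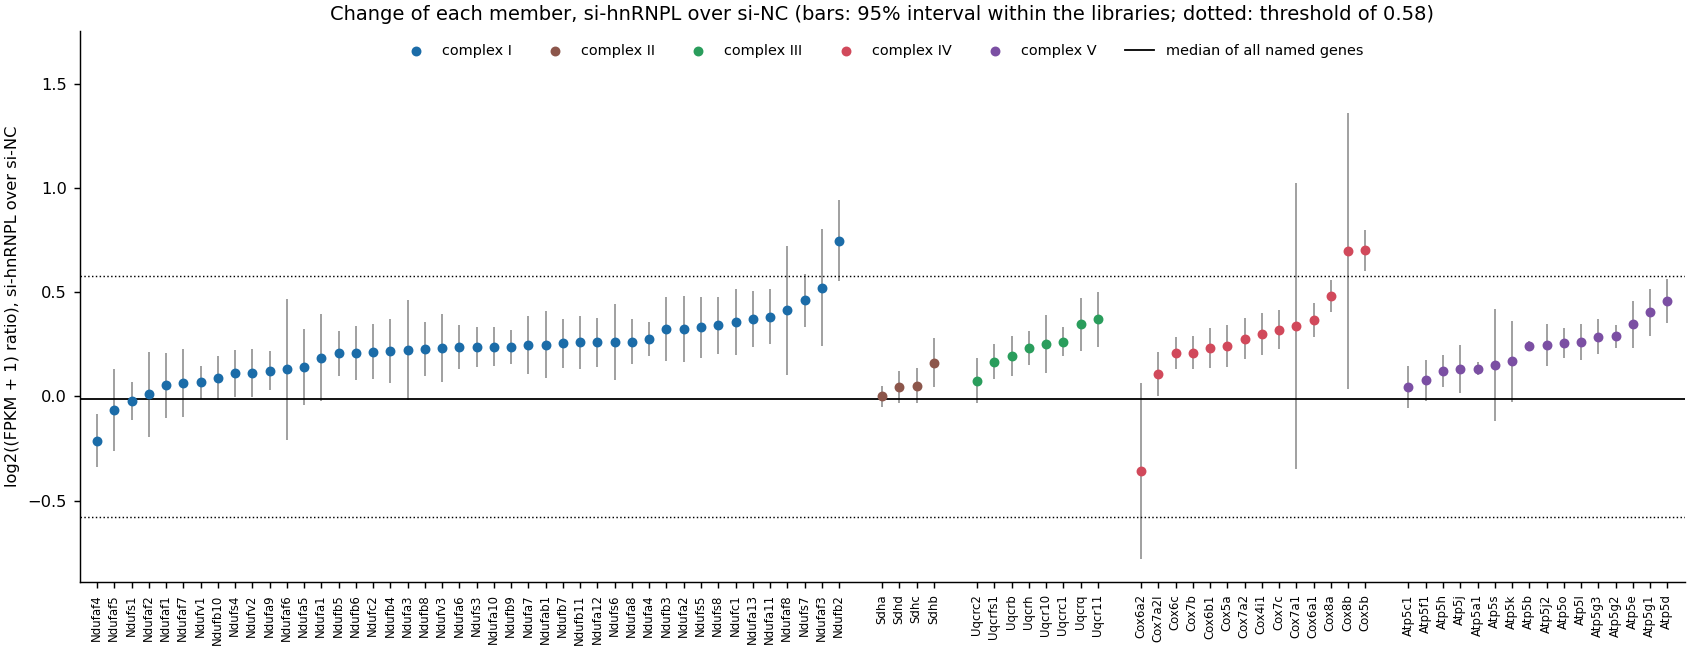
Change of genes of the set that reached 1 FPKM in both libraries, as log2((FPKM + 1) ratio) of si-hnRNPL over si-NC, ordered within complexes I to V (colours), with intervals within the libraries as bars. The black line is the median of all named genes (-0.01) and dotted lines mark an absolute change of 0.58; all but 4 points lie above 0, complex II lies lowest with a median of 0.05, and Cox6a2 is the lowest point.

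As deposited, the shift was alike in complexes I, III, IV and V and smaller in complex II. The medians were 0.24 in complex I, 0.24 in complex III, 0.29 in complex IV and 0.24 in complex V. In complex II the median was 0.05, and Sdha was at 93.4 in both libraries, Sdhc at 86.1 and 89.3, Sdhd at 94.7 and 97.7, and Sdhb at 84.8 and 94.97. Complex II also had the longest transcripts, with a median of 2093.5 bases against 668.5 to 983 in the other complexes. With transcript length and GC content taken out, its median was 0.01. The others then had 0.08 (I), 0.08 (III), 0.09 (IV) and 0.06 (V). The 8 assembly factors of complex I had a median of 0.06 as deposited, with 6 above 0.

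The 3 genes past the threshold were Ndufb2, Cox5b and Cox8b. Ndufb2, a membrane arm subunit of complex I, was at 63.3 FPKM with si-NC and at 107 with si-hnRNPL (0.75, 0.55 to 0.94). Cox5b, the zinc-binding subunit of complex IV, had 154 and 252 (0.70, 0.60 to 0.80). Cox8b had 9.29 and 15.7 (0.70, 0.04 to 1.36), on 32.7 and 36.2 implied fragments, so its interval nearly reaches 0. Ndufb2 shares its locus with Adck2 on the same strand, which was at 3.83 and 4.11.

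In MB and MT, Ndufb2 was at 72.3 and 59.9 and Cox5b at 202 and 158, so si-hnRNPL was the highest library of the 4 for both genes and si-NC was not far from MT. The next highest changes were those of Ndufaf3 (5.77 and 8.72, 0.52), Cox8a (302 and 422, 0.48), Ndufs7 (61.5 and 85.0, 0.46), Atp5d (170 and 234, 0.46), Ndufaf8 (22.3 and 30.1, 0.41) and Atp5g1 (102 and 135, 0.40). None of these reached the threshold.

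Only 4 genes lay below 0. Cox6a2 was at 8.52 and 6.43 (-0.36, -0.78 to 0.07) and Ndufaf5 at 4.30 and 4.07 (-0.07), with intervals that hold 0. Ndufs1, the largest core subunit of complex I, was at 49.4 and 48.7 (-0.02). Ndufaf4 was at 9.65 and 8.19 (-0.21, -0.34 to -0.08), the gene with an interval below 0.

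Other core and F1 subunits lay between these ends. In complex I, Ndufs3 was at 88.1 and 104 (0.24), Ndufs8 at 69.0 and 87.7 (0.34), Ndufv1 at 67.3 and 70.6 (0.07) and Ndufv2 at 71.9 and 77.8 (0.11). In complex III, Uqcr11 had the highest change (174 and 225, 0.37) and Uqcrc2 the lowest (76.5 and 80.7, 0.08), with Uqcrc1 at 77.5 and 93.2 and Uqcrfs1 at 69.7 and 78.4. In complex V, Atp5b was at 563 and 666 (0.24), Atp5a1 at 249 and 273 (0.13), Atp5c1 at 208 and 214 (0.04) and Atp5e at 273 and 348 (0.35). Atp5f1 (157 and 166, 0.08) and Atp5h (321 and 350, 0.12), which form the stator stalk, were next to Atp5c1 at the low end, and Atp5g2 (478 and 583) and Atp5g3 (422 and 514) were both at 0.29.

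The small subunits of complex III were Uqcr10 at 162 and 193 (0.25), Uqcrb at 254 and 290 (0.19), Uqcrh at 284 and 334 (0.23) and Uqcrq at 36.4 and 46.5 (0.35). In complex IV the lowest changes after Cox6a2 were those of Cox7a2l (150 and 162, 0.11), Cox6c (394 and 455, 0.21) and Cox7b (116 and 135, 0.21). Of the other ubiquitous partners in isoform sets, Cox6a1 was at 289 and 373 (0.37), Cox7a2 at 109 and 132 (0.28), Cox4i1 at 310 and 381 (0.30), Cox6b1 at 256 and 301 (0.23) and Ndufa4 at 348 and 421 (0.28). All of these lay above 0 and below the threshold.

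The changes of the muscle isoforms differed in sign, but their intervals overlap. Cox7a1 was at 9.60 and 12.4 (0.34, -0.35 to 1.03), on 34.2 and 30.0 implied fragments. Its share of the isoform set was 8.11% with si-NC and 8.60% (5.70% to 11.5%) with si-hnRNPL, and that of Cox8b was 2.99% and 3.58% (2.43% to 4.74%), with overlapping intervals in both cases. The share of Cox6a2 was 2.87% (2.32% to 3.41%) with si-NC and 1.70% (1.24% to 2.15%) with si-hnRNPL, and these intervals do not overlap. This share also depends on its partner Cox6a1, which was higher with si-hnRNPL (0.37). Of the myotube markers, all 6 were higher in si-hnRNPL than in si-NC, and their part in these values was not tested.

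The shift was not particular to oxidative phosphorylation. The 77 cytosolic ribosomal protein genes that passed had a median of 0.23, with 77 above 0, and the 78 mitochondrial ribosomal protein genes had 0.11, with 67 above 0. The carriers and partners, Cyc1 and Usmg5 among them, had a median of 0.13, with 0 up and 0 down. The tricarboxylic acid cycle genes had 0.02 and the assembly factors with other names 0.04, also with 0 up and 0 down.

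The changes of si-hnRNPL over si-NC followed transcript length and base composition across all genes, and genes of oxidative phosphorylation are short. Across 9860 protein-coding genes the Spearman correlation of the change was -0.45 with the length of the longest annotated coding transcript and 0.43 with its GC content. Across 83 genes of the set these were -0.27 and 0.42. Their median length was 908 bases, against 3032 for all genes with a transcript. In the 500 to 1000 base range the median change was 0.26 for 37 genes of the set and 0.19 for 462 other protein-coding genes, and from 1000 to 2000 bases it was 0.19 for 26 and 0.09 for 2012.

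**Figure D5:**
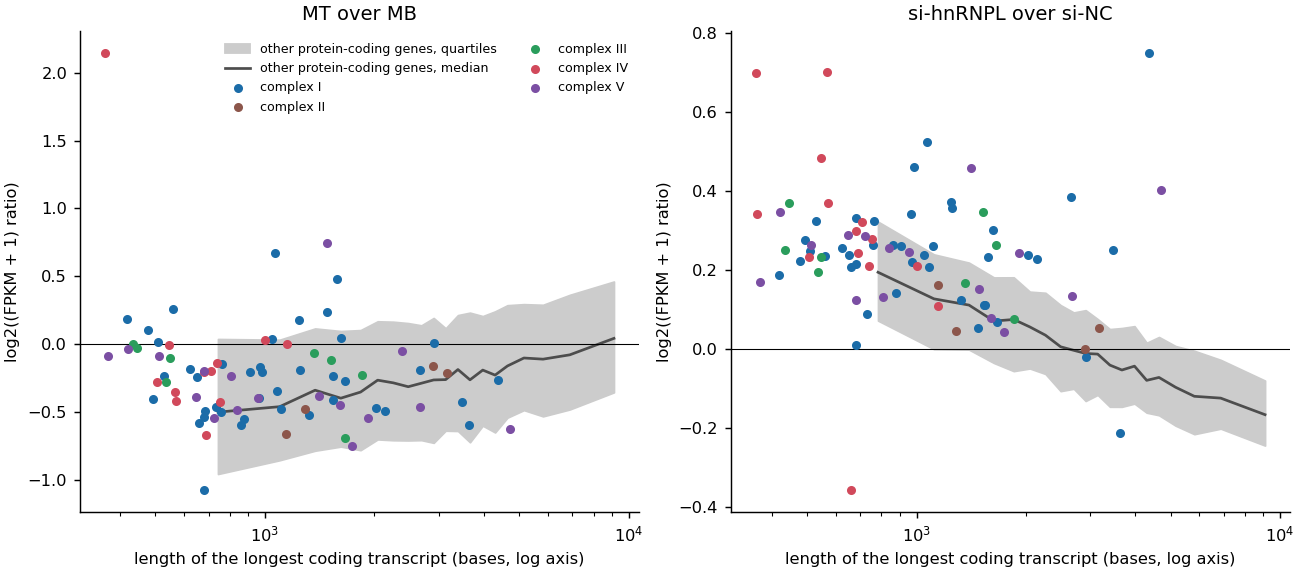
Change of each gene of the set (points, coloured by complex) against the length of its longest annotated coding transcript on a log axis, for MT over MB (left) and si-hnRNPL over si-NC (right), with the median (line) and quartiles (band) of other protein-coding genes. On the right the line falls with length and most points lie above it; on the left the line rises with length and the points lie on both sides of it.

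With the dependence on length and GC content taken out, the median of the set was 0.08 and 66 of 83 genes lay above 0, with 1 up (Ndufb2, 0.86) and 1 down (Cox6a2, -0.59). Over the 9860 named genes with a correction, the corrected median was -0.01, with 4517 above 0, 41 up and 53 down. The corrected values of Cox5b and Cox8b were 0.43 and 0.44. The longest annotated transcript of Ndufb2 has 4371 bases, so its correction rests on that annotation. Other protein-coding genes of 4000 bases or more had an uncorrected median of -0.11, against 0.19 from 500 to 1000 bases. The correction for length would thus raise the value of a long transcript and lower that of a short one. In MB the fragments implied for Ndufb2 were 1770 at 72.3 FPKM. For Ndufa1, whose longest transcript has 419 bases, they were 1670 at 60.5 FPKM. The length used for the FPKM of Ndufb2 may thus be well below 4371 bases. A value for a shorter Ndufb2 transcript was not computed. In MT over MB the corrected median was -0.10, with 32 of 82 genes above 0, while that of all named genes with a correction was -0.24, with 3412 of 9774 above 0. Of the 82 genes, 53 lay above the corrected median of all genes.

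Between the 2 comparisons, the changes of 84 genes of the set had a Pearson correlation of 0.21 and a Spearman correlation of 0.17. Ndufaf3 was among the highest in both (0.67 and 0.52) and Ndufaf4 among the lowest in both (-0.60 and -0.21). Cox5a, Atp5g1 and Uqcrc1 were down in MT over MB and had changes of 0.24, 0.40 and 0.26 in si-hnRNPL over si-NC.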

How the data were processed

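The 4 libraries, 1 per condition, were total RNA-seq from MB and from MT, and polyA RNA-seq from MT treated with si-NC or si-hnRNPL. The authors trimmed the reads, discarded those under 36 bp, mapped the rest to mm9 with TopHat2 and deposited FPKM values from Cufflinks, each with a 95% interval. How fragments of near-identical copies were assigned and whether strand was used in counting are not given in the sources used here, and 27 genes of the set overlap another annotated gene.

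Changes were log2((FPKM + 1) ratio), which understates changes of low genes, with a minimum FPKM of 1 in both libraries and a threshold of 0.58. Intervals combine the half-widths of the deposited intervals and cover counting and assignment error only. Implied fragments are the square of (2 x FPKM / (upper bound - FPKM)). Intervals of medians are order-statistic intervals. To take out transcript length and GC content, the medians of 20 bins of either were subtracted in 3 rounds. Transcripts came from GENCODE on mm9 and promoter windows from RefSeq. The calculations used Python 3.11.15, numpy 2.4.6, pandas 2.3.3 and scipy 1.17.1 and were tested on simulated data.

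The text names all genes of the set in complexes II and III, the core subunits of complex I, the F1 subunits and the isoform sets. It also names every gene past the threshold and the highest and lowest changes of the larger complexes. Of the genes this rule picks, some are not reported here. Other genes and values were singled out after their values were seen. The genes, the lists, the tests and the alternatives were chosen with earlier results of these data known.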

Additional observations from a re-analysis of the deposited data

How the results depend on the processing

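With 1 library per condition, the values measure error within libraries only, and there was no replicate to leave out. No paired analysis was possible because each condition has 1 library and no test was run. Low FPKM limit the muscle isoforms in MB, and the isoforms of other tissues in all libraries.

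In MT over MB the median of the set (-0.24) became -0.013 relative to all genes, 0.31 when scaled to the sum over named genes of at least 300 bases, 0.14 when scaled to the sum over protein-coding genes (chosen after seeing the data) and -0.10 with length and GC content taken out. The 15 genes above 0 became 38, 73, 50 and 32 under these settings in the same order, and the 11 down became 3, 0, 2 and 3. The 3 up became 12 and 6 under the rescalings in the same order. An absolute log2 threshold of 1 gave 1 up and 2 down, subunits alone gave 1 up and 7 down, a minimum FPKM of 5 gave 1 up, and no filter gave 5 up.

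In si-hnRNPL over si-NC the median (0.24) became 0.14 under either rescaling, and 0.082 with length and GC content taken out, which also left 1 up and 1 down. An absolute log2 threshold of 1 left 0 up of 3. The share of Cox6a2 in MB (0.0205%) was 0.0627% with a pseudocount of 0.1. No value turned its direction among those past the threshold. Of 112 summary values recomputed, 27 moved. The other 85 stayed within the error or within 1.5 times of the count, as did 752 of 1196 values of single genes.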
